A study of Mus musculus with 4 samples.

Results

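Toll-like receptors, NOD-like receptors and their proximal adaptors were followed as 1 group of genes in islet-like clusters and in native mouse islets. Members were taken by gene name alone: probes annotated Tlr, Nlrp or Nod followed by a digit, together with Myd88, Ticam1, Ticam2, Tirap, Irak1 to Irak4, Pycard, Naip1, Naip2, Naip5, Nlrc4, Nlrx1, Aim2, Ly96 and Ripk1 to Ripk3. This gave 53 of the 34821 gene names on the array, carried by 76 of its 55681 non-control probes. The rule itself uses no measured value.

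The study hybridised 4 Agilent one-colour whole-genome mouse arrays, 2 of islet-like clusters and 2 of islets, all from male Swiss albino mice of 10 to 12 weeks. Pancreata of 2 to 4 mice were digested together with collagenase, and the islets were flushed from the flasks after 48 h and purified, although another label calls them freshly isolated. The clusters came from the fibroblast-like cells that stayed attached, were passaged as mesenchymal stromal-like cells and were then kept for 10 days as floating cultures without serum. The medium held 0.3 mM taurine from day 3. From day 7 it held 3 mM taurine together with 100 mM nicotinamide and GLP-1, a gut hormone that acts on beta cells. No array of the uninduced starting cells was used here, so induction and origin cannot be told apart in any difference below. Whether the 2 arrays of a group came from separate pools of mice is not stated, so each p-value reflects no more than array-to-array spread, which may be technical.

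Toll-like receptors (TLRs) are membrane proteins that bind microbial products or nucleic acids, on the cell surface for lipopeptides, lipopolysaccharide and flagellin and in endosomes for RNA and DNA. Most signal through the adaptor Myd88 and the IRAK kinases to the transcription factor NF-kB, while Ticam1 serves Tlr3 and endosomal Tlr4. NOD-like receptors (NLRs) are cytosolic: Nod1 and Nod2 detect peptidoglycan fragments and signal through Ripk2, and others assemble with Pycard into inflammasomes that activate caspase-1. In pancreatic islets these receptors are best known from resident macrophages, endothelial cells and stromal cells, and in part from beta cells.

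The promoters of 5 members are printed, each picked by hand and paired with a motif that it carries. They belong to receptors called higher (Tlr2 and Tlr6) or lower (Tlr3), to Myd88, the adaptor of Tlr2 and Tlr6, and to Pycard, the inflammasome adaptor. A promoter entry was found for 43 of the 53 members, and Ly96, Nlrp10, Nlrp14, Nlrp1c-ps, Nlrp4d, Nlrp4g, Ripk2, Ticam2, Tlr4 and Tlr7 had none. The sequences are RefSeq's on GRCm38.p6, each the 250 bases before the annotated start, read 5′ to 3′ in the direction of the gene, and all 5 lie on the minus strand. Capitals mark matches to the NF-kB consensus in Tlr2 and Tlr3, to GAAA and GAAA parted by any 2 bases, the core of an interferon response element, in Tlr6 and Myd88, and to GAGGAA, the core bound by the myeloid ETS factor PU.1, in Pycard. The regions are chr3:83841609-83841858 for Tlr2, chr8:45410381-45410630 for Tlr3, chr5:64959167-64959416 for 1 annotated start of Tlr6, chr9:119340019-119340268 for Myd88 and chr7:127993868-127994117 for Pycard.
Tlr2: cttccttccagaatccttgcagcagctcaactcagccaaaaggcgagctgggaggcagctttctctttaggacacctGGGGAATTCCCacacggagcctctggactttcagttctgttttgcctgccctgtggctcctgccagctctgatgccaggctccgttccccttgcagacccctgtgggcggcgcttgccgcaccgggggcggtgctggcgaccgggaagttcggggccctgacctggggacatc
Tlr3: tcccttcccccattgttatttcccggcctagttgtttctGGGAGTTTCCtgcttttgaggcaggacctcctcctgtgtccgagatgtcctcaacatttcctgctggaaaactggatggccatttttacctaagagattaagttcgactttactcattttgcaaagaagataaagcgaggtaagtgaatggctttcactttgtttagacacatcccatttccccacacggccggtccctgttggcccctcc
Tlr6: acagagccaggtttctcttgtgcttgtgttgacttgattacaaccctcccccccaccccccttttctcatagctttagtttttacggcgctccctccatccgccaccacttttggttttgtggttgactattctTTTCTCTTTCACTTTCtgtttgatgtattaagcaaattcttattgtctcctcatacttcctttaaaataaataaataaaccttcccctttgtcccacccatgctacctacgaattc
Myd88: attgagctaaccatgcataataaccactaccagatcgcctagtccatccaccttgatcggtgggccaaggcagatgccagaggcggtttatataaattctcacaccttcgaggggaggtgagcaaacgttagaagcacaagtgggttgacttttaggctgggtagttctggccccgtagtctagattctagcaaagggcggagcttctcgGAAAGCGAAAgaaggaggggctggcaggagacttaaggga
Pycard: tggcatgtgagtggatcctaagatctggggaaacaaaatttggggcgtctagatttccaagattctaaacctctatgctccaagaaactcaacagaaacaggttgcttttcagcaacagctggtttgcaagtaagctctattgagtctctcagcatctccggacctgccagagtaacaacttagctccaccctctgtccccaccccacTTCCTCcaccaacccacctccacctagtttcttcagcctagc

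Both strands were searched, and overlapping matches were kept, so that the capitals in Tlr2 hold 3 overlapping NF-kB matches and those in Tlr6 hold 2. The NF-kB consensus was present in 6 of 56 member promoters (Irak1, Naip5, Nlrp3, Tlr2 and Tlr3, some with several starts), and in 7.25% of all 32851 promoters. The interferon element core was present in 3 member promoters (Myd88, Tlr6 and Tlr11) and in 2.98% of all. TGANTCA, the AP-1 site, was found in 6 member promoters (Nlrp4b, Nlrp4f, Nlrp5, Nlrp6 and Tlr9) and in 6.75% of all. GAGGAA was found in 13 member promoters and in 23.3% of all. These matches describe the letters only. Irak3 and Ripk3, both higher in clusters, had a promoter entry and carried none of these motifs. Tlr2 and Tlr3 both carry an NF-kB match, and the one was higher and the other lower in clusters.

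Levels are given as log2 of the processed signal relative to the 75th percentile of the same array, so 0 is the 75th percentile, and 1 unit is a doubling. They are compared between arrays for 1 probe and never between genes. Of the 53 members, 37 were tested, meaning that a probe was well above background on the full set of arrays in 1 group or the other. A probe that passed through 1 group alone was favoured to read higher there, so its p-value is not separate support for the difference. In the limma fit over all 24596 genes that met this filter, 9 members were higher and 8 lower in clusters at a Benjamini-Hochberg adjusted p under 0.05, and 20 were not called. That is 45.9% of the tested members, beside 54.8% of all tested genes, with 26.6% higher and 28.2% lower. The median difference was -0.03 over the members and -0.10 over all genes, and 40.5% of members and 41.2% of all genes differed by at least 1 log2 unit. The share among members was thus no higher than that of the array at large, and single genes and roles are described. Each count by role or list below is to be read against these shares of all genes, 26.6% higher and 28.2% lower. The plot of levels by array shows all 37 by role.

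**Figure D1:**
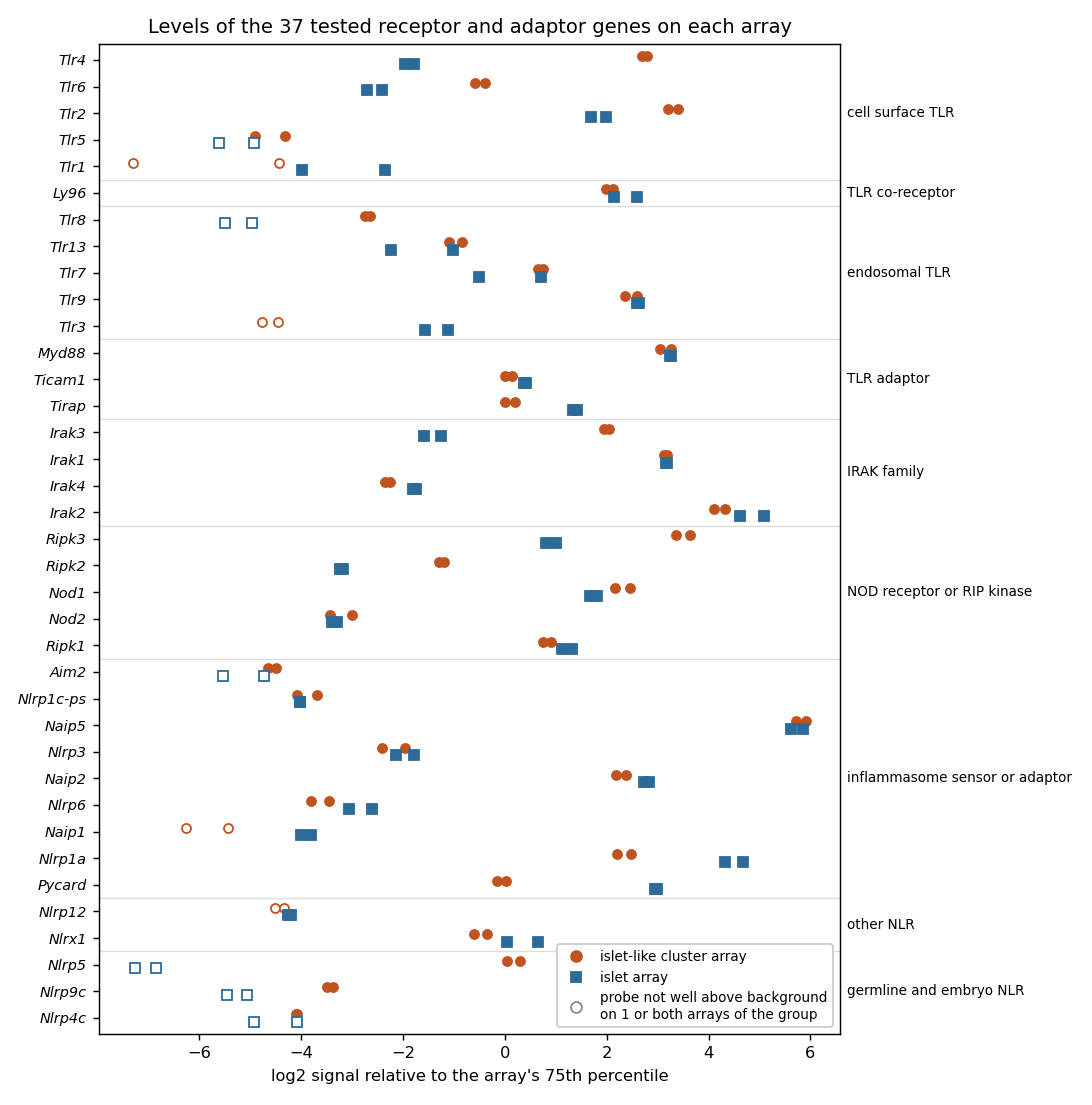
Levels of the 37 tested members on each array, as log2 signal relative to the array's 75th percentile (horizontal axis), grouped by role; circles are the 2 cluster arrays, squares the 2 islet arrays, and open symbols mark a group in which the probe was not well above background on 1 or both arrays. The widest gaps among filled symbols are those of Tlr4 and Irak3, with clusters above, and of Pycard, with islets above.

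The arrays were alike in the share of spots detected, and the groups stood apart. Between 59.7% and 63.6% of spots per array were well above background, and no spot was saturated. The log2 75th percentile ran from 7.96 on islet array 2 to 8.60 on cluster array 2, and the lowest signal well above background, relative to it, from -5.87 on islet array 1 to -4.88 on islet array 2. Log2 levels over all tested genes correlated at 0.985 within clusters, at 0.989 within islets and at 0.796 to 0.810 across groups. Of the 76 member probes, 45 and 46 exceeded background clearly in clusters, and 42 and 39 did in islets. All 15 mesenchymal stromal markers were higher in clusters, 10 of 12 islet endocrine markers were lower, and all 12 endothelial, 12 acinar and 10 duct markers were lower. The islet arrays differed from each other in content: the median endocrine marker lay 1.88 below on islet array 2, and the median acinar marker 0.52 above. In such bulk samples, fewer cells of a type and less RNA per cell cannot be told apart.

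Among the receptors of the cell surface, 3 of 5 were higher in clusters and 1 was lower. Tlr4, the lipopolysaccharide receptor, stood at 2.78 and 2.70 on the cluster arrays and at -1.97 and -1.78 on the islet arrays. Both cluster arrays were far above both islet arrays. The difference was 4.61 ± 0.23 (SE, n = 2 against 2), or 24.4-fold, with a limma adjusted p of 2.32e-07, and 3.82 with normexp background correction. Another Tlr4 probe, placed 86607 bases away on mm9, was not well above background on any array, so the value rests on 1 probe. Ly96, the partner that binds lipopolysaccharide for Tlr4, read 2.12, 1.98, 2.13 and 2.60 in the same order and was not called (-0.32, 95% interval -0.89 to 0.25, limma adjusted p = 0.315).

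Tlr2, the lipopeptide receptor, stood at 3.40 and 3.21 in clusters and 1.99 and 1.69 in islets. The groups did not overlap, and the difference was 1.46 ± 0.24 (2.76-fold, limma adjusted p = 0.000712). Without islet array 2 it was 1.31 and the adjusted p rose to 0.051. Tlr2 works as a pair with Tlr6 for diacylated and with Tlr1 for triacylated lipopeptides, and these partners went opposite ways.

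Tlr6 read -0.39 and -0.58 in clusters against -2.70 and -2.41 in islets. Clusters were above islets on every array, by 2.07 ± 0.24 (4.20-fold, limma adjusted p = 7.22e-05), and by 1.26 with normexp. Tlr1 read -4.44 and -7.30 in clusters and -2.36 and -3.99 in islets. Its arrays were widely spread, the groups only just separate, and the probe was well above background on 1 of 2 cluster arrays. The difference of -2.69 ± 0.81 (limma adjusted p = 0.0184) lost its call in 7 of 16 alternatives and ran from -4.13 to -1.26 as each array was left out. It was -0.75 with normexp and -1.60 with a floor for dim signals, and was called in both. Tlr5, the flagellin receptor, was well above background in clusters only, and was not called (0.65, interval -0.05 to 1.35, and -0.11 with normexp).

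The endosomal nucleic acid receptors split. Tlr3, which binds double-stranded RNA, stood at -4.76 and -4.45 in clusters and -1.11 and -1.56 in islets. Islets were above clusters on every array, and the probe was well above background on only 1 of 2 cluster arrays. The difference was -3.27 ± 0.26 (9.65-fold lower, limma adjusted p = 5.39e-06), and -1.43 with normexp.

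Tlr8, a single-stranded RNA receptor, exceeded background clearly in clusters (-2.65 and -2.75) and in neither islet sample (-5.48 and -4.95). Taking the lowest signal reliably seen on the islet arrays as a ceiling there, it was at least 5.57-fold higher in clusters (limma adjusted p = 3.22e-05). The call was lost with normexp (0.53, adjusted p = 0.052). The other Tlr8 probe, dim in islets as well, also read higher (1.29, limma adjusted p = 0.0369 over all probes, of which 53.2% were called). Both probes passed the filter through the clusters alone, so the second is not separate support for the first.

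Tlr9, the receptor for unmethylated CpG DNA, read 2.59, 2.36, 2.63 and 2.59 and was not called (-0.13, interval -0.66 to 0.39, adjusted p = 0.648). Tlr7, another single-stranded RNA receptor, read 0.75 and 0.64 in clusters and -0.50 and 0.71 in islets. Islet array 2 lay among the clusters and islet array 1 below them, and the gene was not called (0.59, interval -0.23 to 1.42, adjusted p = 0.198). A further Tlr7 probe, 283 bases away, read -2.30 and -2.46 in clusters and was not well above background in islets, and it was called higher (3.67, adjusted p = 0.000109). Tlr13, which detects bacterial ribosomal RNA, read -0.84 and -1.10 in clusters and -2.23 and -1.02 in islets, and was not called (0.66, interval -0.17 to 1.49). It passed as higher in 2 of 17 alternatives. Tlr11 and Tlr12, receptors for parasite profilin, were not well above background on any array.

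Tlr7 and Tlr13 shared 1 pattern: each was about 1.2 log2 units higher on islet array 2 than on islet array 1 (1.22 and 1.21), against a median of 0.09 over the 37 members and 0.02 over all genes. Without islet array 1 their differences were -0.019 and 0.052, and without islet array 2 they were 1.20 and 1.26. Tlr1 went the other way, lower by 1.63 on islet array 2. These were the only 3 of 37 members, 8.11%, to differ by over 1 unit between the islet arrays, as did 4.86% of all genes. Markers of macrophages and dendritic cells moved with Tlr7 and Tlr13: 12 of the 14 tested were higher on islet array 2, by a median of 1.04. Other leukocyte lists did so too. Higher there were 6 of 8 neutrophil and mast cell markers (median 1.29) and 5 of 5 lymphocyte markers (median 0.35). The shift was not limited to leukocyte lists: 10 of 12 acinar markers were higher too (median 0.52), against 1 of 12 islet endocrine markers (median -1.88). Among all genes, 12839 of 24596 were higher on islet array 2. The part of any leukocyte type in the Tlr7 and Tlr13 values was not tested.

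Those macrophage markers did not move one way between groups. Of the 14 tested, 7 were lower in clusters, among them Aif1 (-4.49), Cd68 (-3.93) and the pan-leukocyte gene Ptprc (-1.15), whose call was lost without cluster array 2 or islet array 2. Cd53 (8.51) and Tyrobp (4.10) were higher, while Emr1 (-0.47), Csf1r (-0.19) and Itgam (0.40) were not called. Csf1r had no settled direction: it passed as higher with normexp (2.03, adjusted p = 1.15e-16) and with the mean of its probes (0.95). It passed as lower with the 75th percentile taken over probes detected on every array (-0.38). The brightest probe was picked anew under normexp, so the normexp value may come from another Csf1r probe. Itgam passed as higher when arrays were scaled to their median (0.60, adjusted p = 0.0246). As each array was left out, Aif1 ran from -5.54 to -3.45, Cd53 from 7.25 to 9.76 and Tyrobp from 3.34 to 4.86, and with normexp they were -2.38, 5.60 and 2.71. C1qa, C1qc and Laptm5 were not well above background on either cluster array, and Cd163, Mrc1, Fcgr1 and Itgax did not pass the filter in either group. The part of such cells in the receptor values was not tested. The scatter of islet spread against group difference sets these markers beside the members.

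**Figure D2:**
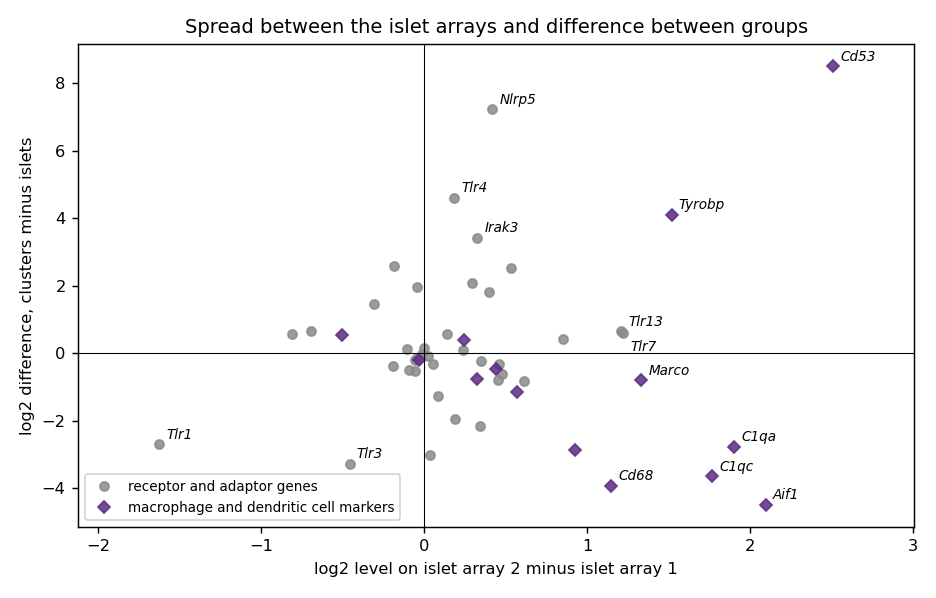
Each gene's level on islet array 2 minus islet array 1 (horizontal, log2) against its difference between clusters and islets (vertical, log2); grey circles are the 37 tested members and purple diamonds the 14 tested macrophage and dendritic cell markers. Tlr7 and Tlr13 lie at about 1.2 on the horizontal axis among the markers, while Tlr4, Irak3 and Nlrp5 lie near 0 on it and far up.

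The shared adaptors moved little or fell. Myd88, used by nearly all TLRs, read 3.27 and 3.04 in clusters and 3.24 and 3.26 in islets, with overlapping groups. Its difference was -0.10 (interval -0.62 to 0.43, limma adjusted p = 0.747). Tirap, which brings Myd88 to Tlr2 and Tlr4, stood at 0.01 and 0.20 in clusters against 1.33 and 1.42 in islets. Both islet arrays were above both cluster arrays, and the difference was -1.27 ± 0.23 (2.42-fold lower, limma adjusted p = 0.0013), losing its call without islet array 2 (-1.23, adjusted p = 0.0714). Ticam1 was not called (-0.32, interval -0.84 to 0.19), though it passed as lower with the 75th percentile taken over probes detected on every array (-0.51, adjusted p = 0.0217). Ticam2 was not well above background on any array.

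In the IRAK family, 1 of 4 members was called in the limma fit, and 2 were lower at an unadjusted p under 0.05. Irak3, a pseudokinase that restrains signalling by the other IRAKs, read 2.05 and 1.96 in clusters and -1.58 and -1.25 in islets. Clusters were well above islets on every array, by 3.42 ± 0.24 (10.7-fold, limma adjusted p = 2.19e-06). The kinases Irak1, Irak2 and Irak4 were not called, with differences of -0.03, -0.63 and -0.54 and adjusted p of 0.93, 0.0633 and 0.0725. For Irak1 the groups overlapped, and for Irak2 and Irak4 both islet arrays were above both cluster arrays. With the 75th percentile taken over probes well above background on all 4 arrays, which shifts all genes by -0.19, Irak2 and Irak4 passed as lower (-0.82 and -0.73).

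Of the NOD receptors and RIP kinases, 2 of 5 were higher and 0 lower in the limma fit, with 0 lower also at an unadjusted p under 0.05. Ripk3, the kinase that triggers necroptosis, read 3.64 and 3.37 in clusters and 1.00 and 0.82 in islets. The groups were clearly apart, by 2.59 ± 0.24 (6.04-fold, limma adjusted p = 1.48e-05). Ripk2, the kinase that carries the signal of Nod1 and Nod2, read -1.19 and -1.29 in clusters against -3.19 and -3.23 in islets. Clusters were higher on every array, by 1.97 ± 0.23 (3.91-fold, limma adjusted p = 7.04e-05), and by 0.93 with normexp.

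Nod1 itself read 2.46 and 2.17 in clusters and 1.68 and 1.82 in islets. Its difference of 0.57 (interval 0.03 to 1.11) had a limma adjusted p of 0.0691, and it passed as higher when arrays were scaled to their median (0.76, adjusted p = 0.012), a choice that moves all genes by 0.20. Nod2 (0.13, interval -0.43 to 0.69) and Ripk1, the kinase at the centre of TNF receptor signalling (-0.38, interval -0.91 to 0.14), were not called. With the 75th percentile taken over probes detected on every array, Ripk1 passed as lower (-0.57, adjusted p = 0.0176).

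Inflammasome sensors and adaptors showed 4 of 9 tested members lower in clusters and 0 higher in the limma fit, with 0 higher also at an unadjusted p under 0.05. That is 44.4% called, beside 54.8% of all genes, of which 28.2% were lower. Pycard, the adaptor that joins the sensors to caspase-1, read 0.03 and -0.15 in clusters and 2.95 and 2.99 in islets. The islet arrays were nearly equal and both far above the clusters, and the difference was -3.03 ± 0.23 (8.16-fold lower, limma adjusted p = 3.85e-06). Nlrp3, the sensor of membrane damage, read -1.95 and -2.41 in clusters and -2.13 and -1.78 in islets, overlapped, and was not called (-0.22, interval -0.82 to 0.37).

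Nlrp1a, a further inflammasome sensor, read 2.47 and 2.20 in clusters against 4.32 and 4.67 in islets on its brightest probe. Islets were above clusters on both arrays, by -2.16 ± 0.25 as clusters minus islets (limma adjusted p = 6.87e-05). That probe's transcript is also annotated to Gm5860. The other tested Nlrp1a probe, 1064 bases away, showed -0.15 (adjusted p = 0.594), so the lower call rests on 1 probe whose transcript carries 2 gene names. Naip1, which recognises bacterial secretion needles, was above background in islets (-3.99 and -3.80) and on neither cluster array. It was at least 2.48-fold lower in clusters (limma adjusted p = 0.000471), a call lost with normexp (-0.43, adjusted p = 0.129). The other Naip1 probe was not well above background on any array, so this call too rests on 1 probe.

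Nlrp6, known from intestinal epithelium, read -3.46 and -3.80 in clusters and -3.06 and -2.61 in islets. Its difference was -0.79 ± 0.26 (limma adjusted p = 0.0288) and was lost in 8 of 17 alternatives. Naip2 and Naip5, sensors of the bacterial secretion rod and of flagellin, were not called (-0.50, interval -1.02 to 0.02, and 0.08, interval -0.46 to 0.62). Naip2 passed as lower in 5 of 17 alternatives, among them quantile normalisation (-0.60, adjusted p = 0.0292). Neither were Aim2, the cytosolic DNA sensor (0.57, interval -0.10 to 1.24), and the pseudogene Nlrp1c-ps (0.14, interval -0.41 to 0.69). Nlrc4, the partner of the Naip proteins, and Nlrp1b were not well above background on any array.

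Outside the inflammasome, Nlrx1, an NLR of mitochondria, read -0.36 and -0.61 in clusters and 0.04 and 0.66 in islets. The difference of -0.83 ± 0.27 (limma adjusted p = 0.0282) was lost in 9 of 18 alternatives, and the other probe of the gene gave 0.15. Nlrp12, an NLR of myeloid cells, was not called (-0.20, interval -0.71 to 0.32). Nlrp10 was not well above background.

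**Figure D3:**
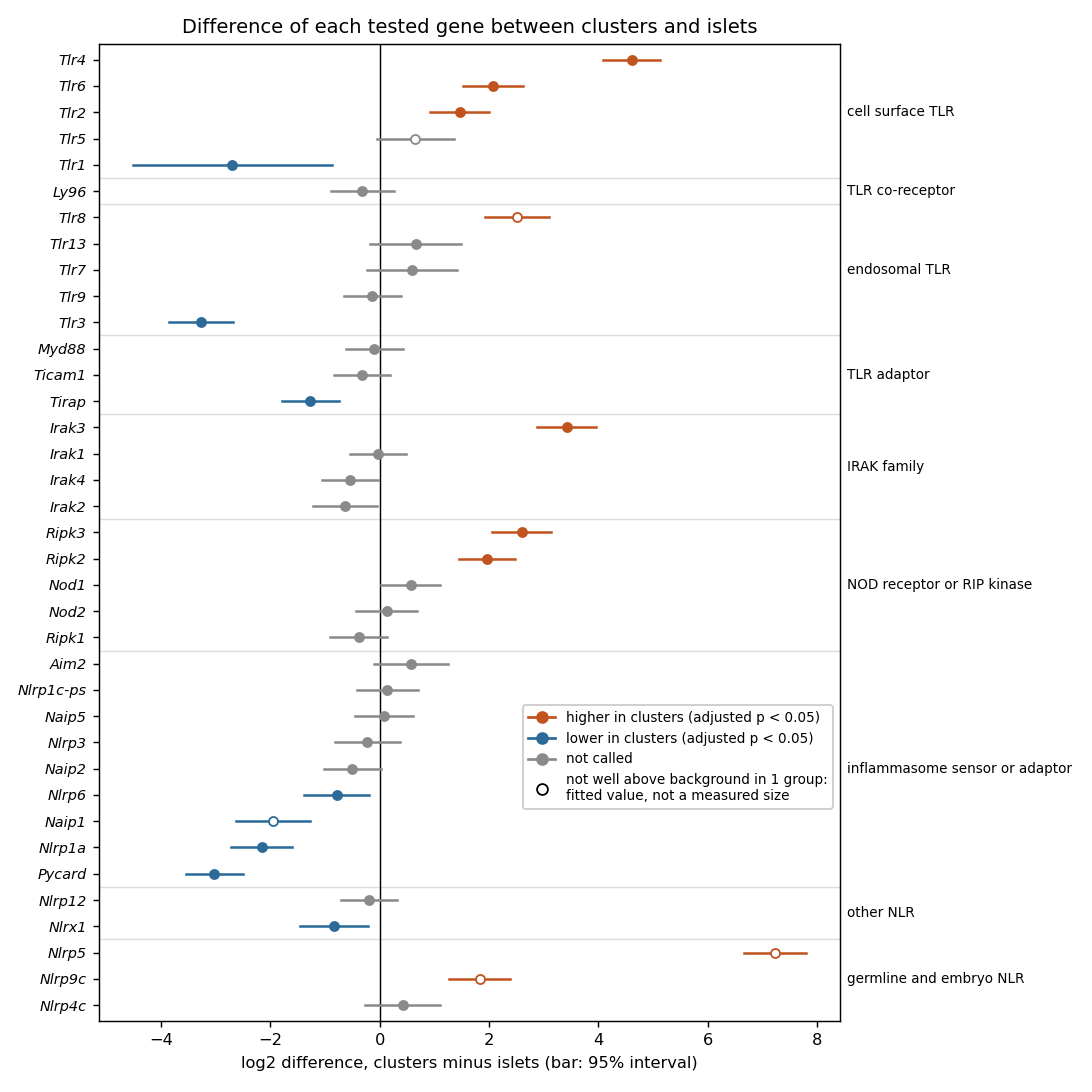
Difference of each of the 37 tested members, clusters minus islets, on the log2 scale (horizontal axis) with its 95% interval, grouped by role. Orange is higher, blue lower and grey not called. Open circles mark a gene with no probe well above background on either array of 1 group. Tlr3 and Tlr1 are filled, though well above background on only 1 of 2 cluster arrays. Tlr4 at 4.61 and Irak3 at 3.42 lie farthest right among the filled circles, and Tlr3 at -3.27 and Pycard at -3.03 farthest left.

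The NLRs known from germ cells and early embryos were mostly dark. Of 13, 10 were not tested, and Nlrp14 and Nlrp4e were well above background on 1 array of each group. Nlrp5, a maternal gene of the oocyte, was the exception: it read 0.30 and 0.05 in clusters, where it was well above background, and -7.27 and -6.85 in islets, where it was not. It was at least 46.7-fold higher in clusters (limma adjusted p = 2.67e-08), and the fitted difference of 7.23 fell to 2.74 with normexp. Only 1 probe represents it, and the longest run of bases that probe shares with a probe of another gene is 16. Nlrp9c was at least 3.33-fold higher (limma adjusted p = 0.000195), a call lost with normexp (0.28, adjusted p = 0.348). Its other probe was not well above background on any array, so the call rests on 1 probe. Nlrp4c was not called on its brightest probe (0.42, interval -0.26 to 1.10), and its other probe, dim in islets, was called higher (2.19, adjusted p = 0.00166).

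More than 1 tested probe was available for 9 of the 37 genes, and all probes of a gene gave the same call in 5 of them. For Irak1, Irak2, Irak4 and Nlrp3 this meant that no probe was called, and the Nlrp3 probes differed in sign (-0.22 and 0.36). Only Tlr8 was called higher on both, and both were dim in islets. The calls differed for Nlrp1a, Nlrp4c, Nlrx1 and Tlr7. Of these, Nlrp1a and Nlrx1 were called lower on the probe used and not called on the other. Averaging the probes of a gene gave 2.13 for Tlr7 and 1.30 for Nlrp4c, which both then passed as higher. It gave -1.16 for Nlrp1a and -0.34 for Nlrx1. A run of at least 16 bases shared with a probe of another gene name was found for 13 of the 76 member probes, the longest being 24 bases in Tlr13.

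**Figure D4:**
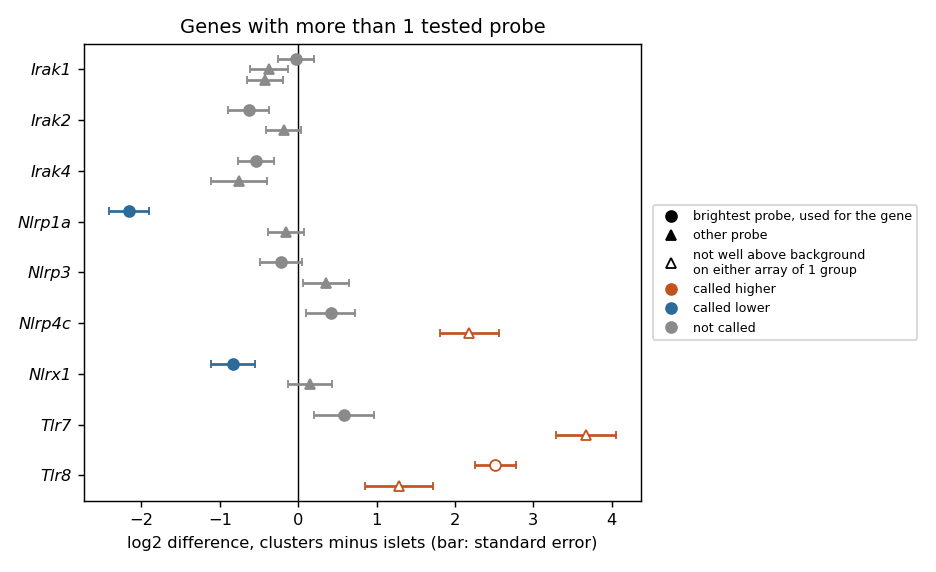
Log2 difference between clusters and islets (horizontal axis, bars are standard errors) for each tested probe of the 9 members with more than 1; circles are the brightest probe, triangles the others, and open symbols mark probes not well above background on either array of 1 group. The probes of Tlr7 stand at 0.59 and 3.67 and those of Nlrp1a at -2.16 and -0.15.

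Genes that act with these receptors were counted from 8 lists. Of the accessory and trafficking proteins, 3 of 10 tested were higher and 3 lower (median 0.39). Cd36, a co-receptor of Tlr2 and Tlr6, was higher (1.83), as were Hsp90b1, the chaperone of TLRs (1.18), and Clec7a, the beta-glucan receptor (1.75), whose call was lost in 9 of 16 alternatives. Cd14, which hands lipopolysaccharide to Tlr4, stood at 4.50 and 4.28 in clusters and 7.01 and 7.11 in islets, so it was lower by 6.34-fold (-2.66, limma adjusted p = 1.03e-05) where Tlr4 was higher. Lbp, the lipopolysaccharide carrier (-1.69), and Ly86, the partner of Cd180 (at least 1.60-fold lower, and -0.53 with normexp), were lower too. Hsp90b1 lost its call without islet array 2 (0.97), and Ly86 in 4 of 16 alternatives.

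Of the signal transducers, 8 of 19 were higher and 3 lower (median 0.50). The ubiquitin-conjugating enzyme Ube2n (1.85) and the ubiquitin ligases Xiap (1.39) and Peli1 (1.30) were higher. Peli3 (-2.10), Birc3 (-1.32) and the kinase Ikbkb (-0.64) were lower. Averaging its probes ended the call of Ube2n (0.59), and Ikbkb lost its call in 8 of 17 alternatives. Without islet array 2 the calls of Birc3 (-1.13), Peli1 (1.27) and Xiap (1.28) were lost.

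Among the NF-kB and IRF transcription factors, 3 of 9 were higher and 3 lower (median -0.41). The NF-kB subunits Nfkb1 (1.55) and Nfkb2 (0.99) and Irf5 (1.48) were higher. Irf7, the factor of the interferon response downstream of Tlr7 and Tlr9, read -3.63 and -3.52 in clusters and 1.75 and 2.33 in islets (-5.61, limma adjusted p = 1.59e-07). Irf8, a factor of myeloid cells, was at least 20.3-fold lower (-2.00 with normexp), and Irf1 was lower too (-1.63). The call of Irf5 was lost without islet array 1 (1.30), and that of Nfkb2 without either islet array (0.93 to 1.05).

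The negative regulators divided evenly, with 4 of 16 higher and 4 lower (median 0.10). Socs1 (3.24), the RNase Zc3h12a (2.97) and Nfkbiz (1.10) were higher, as was the member Irak3. Sigirr, an inhibitory receptor of the TLR and interleukin-1 receptor family, read -3.42 and -3.59 in clusters and 2.42 and 2.42 in islets (-5.93, limma adjusted p = 4.73e-08). Tnip1 (-1.17) and Tnfaip3 (-1.08) were lower. Without either islet array the calls of Nfkbiz (0.98 to 1.22), Tnip1 (-1.18 to -1.17) and Tnfaip3 (-1.23 to -0.94) were lost.

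The inflammasome effectors were higher more often than lower, with 7 of 13 against 2 (median 0.64), or 69.2% called beside 54.8% of all genes. Of the sensors and adaptors 4 of 9 were lower, and Naip1, Nlrp1a and Nlrp6 each lost that call in an alternative. Casp1, the caspase that inflammasomes activate, read 1.80 and 1.67 in clusters and -2.83 and -1.94 in islets (4.12, limma adjusted p = 3.50e-06). P2rx7, the ATP-gated channel upstream of Nlrp3 (5.45), and Gsdmd, the pore-forming target of caspase-1 (2.98), were higher as well. Txnip, a thioredoxin inhibitor that binds Nlrp3, read 0.36 and 0.22 against 5.39 and 5.76 (-5.29), and Pstpip1 was lower by a smaller size (-0.88), lost in 10 of 16 alternatives. The mean of its probes gave 4.09 for P2rx7.

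Of the cell death partners of the RIP kinases, 0 of 7 were higher in the limma fit, at an unadjusted p under 0.05 as well, and 4 were lower (median -0.99), while Ripk3 was higher. Zbp1, a nucleic acid sensor that engages Ripk3, was lower (-2.44), as were Cflar (-1.28) and Casp8 (-1.24), which hold necroptosis in check. Averaging its probes turned Cflar to 0.16 and took Zbp1 to -3.62. Without islet array 2 the calls of Casp8 (-1.18) and Cflar (-1.08) were lost, that of Casp8 without islet array 1 as well (-1.30). Mlkl, which carries out necroptosis below Ripk3, read 2.90, 2.65, 2.87 and 3.47 and was not called (-0.39, interval -1.01 to 0.22); it is named here after its values were seen.

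The other cytosolic nucleic acid sensors fell more often than they rose, 5 of 9 against 2 (median -0.75), as did Tlr3 among the endosomal receptors. The RNA sensors Ifih1 (-1.96) and Dhx58 (-1.78) and the sensor Zbp1 were lower. Mb21d1, the cGAMP synthase (2.94), and Ifi204 (1.53) were higher. The mean of its probes gave 1.46 for Mb21d1, and Ifi204 was not called without islet array 1 (1.09) or without either cluster array (1.43 to 1.64).

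Inflammatory targets of TLR signalling had the highest share of calls among the 8 lists, with 16 of 22 higher and 3 lower (median 2.64). The acute-phase gene Saa3 read 9.84 and 9.65 in clusters and -3.26 and -1.30 in islets (12.02, limma adjusted p = 8.65e-08). Ptgs2, the inducible cyclooxygenase (7.66), and Il1a (6.52) were higher. As each array was left out, Saa3 ran from 11.04 to 13.00, Il1a from 5.31 to 7.73 and Tnf, described next, from -6.10 to -4.88. Icam1, an adhesion molecule, was at least 32.0-fold lower, Csf2 at least 3.49-fold lower, and Tnf was lower (-5.49) while well above background on 1 of 2 cluster arrays. The fold bounds of dim genes hold for the processed signal only: with normexp the fitted differences were -2.59 for Icam1 and -0.56 for Csf2, and that of Tnf was -3.02. Many of these targets are also made by cultured stromal cells, whose 15 markers were all higher in clusters, and the part of cell type in these counts was not tested. Of the 42 genes named from the 8 lists, 25 kept their call in every alternative in which they were tested. Genes dim in 1 group, such as Irf8, Icam1 and Csf2, were not tested where only probes well above background on all 4 arrays were kept. With normexp, 40 of the 42 differences were smaller, 15 moved by over 1.5-fold and 3 calls were lost.

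**Figure D5:**
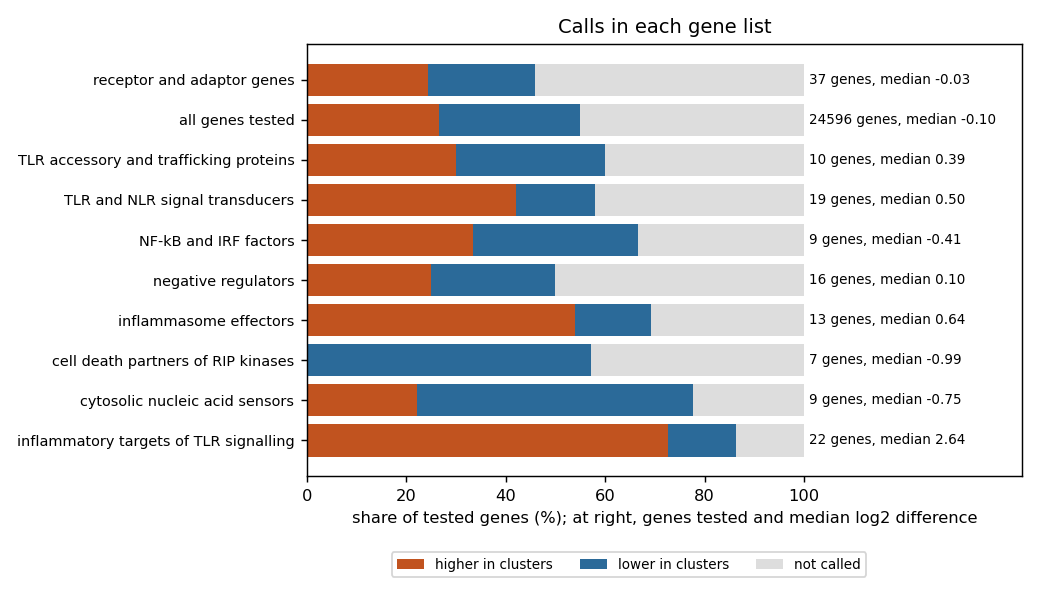
Share of tested genes called higher (orange), called lower (blue) or not called (grey) in clusters against islets, in percent, for the members, all tested genes and the 8 companion lists, with the number tested and the median log2 difference at right. The members show 45.9% called beside 54.8% of all genes, and the inflammatory targets have the widest orange bar.

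The remaining members are accounted for as follows. All 20 members not called had fitted differences under 1 log2 unit in size. For 11 of them the 95% interval also lay within 1 unit in both directions, so that a doubling is outside it, and for the other 9 it reached further. The 16 untested members were Nlrc4, Nlrp10, Nlrp14, Nlrp1b, Nlrp2, Nlrp4a, Nlrp4b, Nlrp4d, Nlrp4e, Nlrp4f, Nlrp4g, Nlrp9a, Nlrp9b, Ticam2, Tlr11 and Tlr12, and 14 of them were well above background on no array. Among the 27 members measured above background on all 4 arrays, which leaves out those seen in 1 group only, 6 were higher and 5 lower, or 40.7%, beside 50.2% of the 20780 such genes.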

How the data were processed

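The deposited files hold the scanner output of 4 arrays, with intensity per spot and 0 or 1 quality flags (a coded value of another kind) written by Agilent Feature Extraction 11.5.1.1, per the file headers; probes are annotated on mm9. A table of the authors' values on a log2 scale was used as an alternative. Its correlation with the scanner values was at least 0.99995, and its centring is not stated. Processed signals were taken as log2 minus each array's 75th percentile over non-control probes, without non-uniform spots. Each gene name was represented by its brightest probe, which was picked anew under normexp. Genes well above background on both arrays of a group were fitted with limma 3.58.1 in R 4.3.3 (lmFit, eBayes), with Benjamini-Hochberg adjustment at 0.05; the script was tested on simulated data. Depth is limited to 2 arrays a group. All arrays sat on 1 slide. Same-numbered arrays did not deviate together (r = -0.02), so no pairing was used.

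The members and gene lists were chosen with earlier results of these data known. Every member was named, and from each list up to 3 called genes a direction by size. The promoters shown were picked by hand, each with a motif that it carries, so they do not stand for the called members. "At least" folds set the bright group's mean against the lowest signal well above background on each dim array, or the probe's own signal if higher. Alternatives covered background correction (normexp, offset 50), scaling, filters, flags, probe choice, variance fit, the authors' values, a replicate block and each array left out, 16 in all, plus 1 added after seeing the data (population-outlier spots also left out). RefSeq accessions matched 68 of the 70 member probes that carry one.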

Additional observations from a re-analysis of the deposited data

How the results depend on the processing

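The count of members called higher was 7 to 12 over the alternatives, against 9, and 8 to 9 as each array was left out. The count called lower, 8 in the main analysis, rose to 12 when arrays were scaled over probes detected on every array. It was 5 with scaling to the array median, 5 when only probes detected on all 4 arrays were kept, and 5 to 6 as each array was left out. The number of all genes called, 13490, ran from 7650 (without islet array 2) and 8266 (without islet array 1) to 10120 as each array was left out, where the lone array of a group is assumed to vary like the others. With the replicate block, 9 members were higher and 6 lower, Nlrp6 (adjusted p = 0.0922) and Nlrx1 (0.0924) losing their calls, and 11307 genes were called. The filter for probes detected on all 4 arrays left Naip1, Tlr1 and Tlr3 untested, and no called member that it tested lost its call.

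Of the 17 called members, 8 kept their call under every alternative in which they were tested. Of these 8, Nlrp5 and Tlr3 were not tested where only probes well above background on all 4 arrays were kept. With normexp, 16 of the 17 differences were smaller and 4 calls were lost. No called member changed direction except Nlrx1, on its other probe (0.15). Among list and marker genes, Cflar, called lower at -1.28, turned with the mean of probes (0.16, adjusted p = 0.616). Csf1r, not called at -0.19, passed as higher with normexp (2.03, possibly on another probe) and with the mean of probes (0.95). Members not called changed sign: with normexp Aim2 (-0.064), Irak1 (0.091), Nlrp1c-ps (-0.13), Nlrp4c (-0.065), Nod2 (-0.11) and Tlr5 (-0.11); scaled to the median Irak1 (0.17), Myd88 (0.10) and Tlr9 (0.061), and the marker Csf1r (0.0053); scaled over probes detected on every array Naip5 (-0.11), Nlrp1c-ps (-0.050) and Nod2 (-0.061); with quantile normalisation Nlrp12 (0.024); with the mean of probes Nlrp3 (0.066); on its other probe Nlrp3 (0.36). As each array was left out, values crossed 0 for Irak1 (-0.056 to 0.0036), Myd88 (-0.21 to 0.019), Naip5 (-0.038 to 0.20), Nlrp1c-ps (-0.061 to 0.34), Nlrp3 (-0.45 to 0.0067), Nlrp4c (-0.0097 to 0.84), Nod2 (-0.082 to 0.34) and Tlr7 (-0.019 to 1.20). The cause was not tested. Signals near background limit the sizes of Nlrp5, Tlr8, Nlrp9c, Naip1, Tlr1 and Tlr3.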
